A study of Homo sapiens with 4 samples.

Results

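Immediate early genes are switched on within minutes of a growth factor or stress signal, without the need for new protein, and most of them fall silent again soon after. The 10 genes of this class followed here, in HCT116 cells after silencing of CTNNB1 (the beta-catenin gene), were EGR1, EGR2, EGR3, NR4A1, NR4A2, NR4A3, IER2, IER3, ZFP36 and ZFP36L1. Each gene was taken as the array's transcript cluster (the set of probes that measures a transcript) annotated with that symbol alone, and where there were several, the one used was selected on its mean level, the highest over all 4 arrays. The genes themselves were proposed with the CTNNB1 siRNA against control siRNA values of these arrays known. Of the 10 names, 9 had such a cluster, out of 22411 genes with a cluster in all, and EGR2 had none and was not analysed here.

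HCT116 is an established cell line from a human colon carcinoma, with an activating mutation of CTNNB1. The cells were transfected with CTNNB1 siRNA or with control siRNA, in both cases at 50 nM with a lipid reagent, and RNA was taken after 48 h. Each treatment had 2 samples that the labels call biological replicates, each on 1 whole-transcript array, and the siRNA sequences were not used here. Values are log2 expression levels, and their precision is limited by the number of arrays.

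In the ERK pathway, growth factor receptors act through RAS, RAF and MEK on the kinase ERK. ERK phosphorylates ELK1, which sits with the serum response factor SRF at CArG boxes of immediate early promoters, and other kinases act through CREB1 at cyclic AMP response elements (CREs). The products fall into roles. The EGR proteins are zinc finger transcription factors of GC-rich sites, the NR4A proteins are orphan nuclear receptors, IER2 and IER3 are short-lived regulators, and the ZFP36 proteins bind AU-rich elements of messengers and recruit the machinery that degrades them.

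The upstream sequences of 3 genes are shown: EGR1, which had the largest difference among the members with an entry, and the paralogs ZFP36 and ZFP36L1, which were called in opposite directions. They come from RefSeq (build GRCh38.p14) and cover the 250 bases before an annotated start, written 5′ to 3′ on the gene's own strand. Capitals mark CArG boxes and CRE half-sites. The EGR1 stretch lies at chr5:138465229-138465478 on the plus strand, that of ZFP36 at chr19:39406597-39406846 on the plus strand, and that of the second of the 2 annotated starts of ZFP36L1 at chr14:68793417-68793666 on the minus strand.
EGR1: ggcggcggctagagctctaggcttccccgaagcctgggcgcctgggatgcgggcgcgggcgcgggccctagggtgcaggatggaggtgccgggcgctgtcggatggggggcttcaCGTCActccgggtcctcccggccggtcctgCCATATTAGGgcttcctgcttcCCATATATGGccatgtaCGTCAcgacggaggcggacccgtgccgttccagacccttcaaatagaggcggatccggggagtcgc
ZFP36: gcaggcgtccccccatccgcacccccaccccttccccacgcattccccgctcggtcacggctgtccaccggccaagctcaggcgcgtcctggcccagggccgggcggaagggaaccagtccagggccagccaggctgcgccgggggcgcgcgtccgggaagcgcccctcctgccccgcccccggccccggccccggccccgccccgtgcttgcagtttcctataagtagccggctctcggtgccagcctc
ZFP36L1: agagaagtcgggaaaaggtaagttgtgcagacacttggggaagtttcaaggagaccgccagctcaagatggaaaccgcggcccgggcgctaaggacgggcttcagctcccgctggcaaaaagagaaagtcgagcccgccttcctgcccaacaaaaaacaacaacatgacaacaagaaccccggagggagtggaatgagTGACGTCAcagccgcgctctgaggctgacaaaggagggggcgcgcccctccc

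The EGR1 stretch held 2 CArG boxes, CCATATTAGG at -105 and CCATATATGG at -83 from the start, between CRE half-sites at -135 and -66. The ZFP36 stretch held no match to any of the 6 motifs searched. In ZFP36L1 the 2 half-sites, at -52 and -49, overlap and form a full CRE, TGACGTCA. The motifs, searched on both strands, were the CArG box, the CRE half-site TGACG, the full CRE TGACGTCA (which contains a half-site on each strand), the EGR site GCGGGGGCG, the TCF/LEF core CTTTGA and the ETS core CCGGAA. RefSeq entries were used for 7 of the 10 names, with 11 windows because EGR2, NR4A1 and ZFP36L1 have several starts, and NR4A2 and IER3 were not among them. EGR3 was left out.

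A CArG box was found in 2 of the 11 windows, those of EGR1 and of the third start of EGR2, against 1.16% of 35114 windows of all genes. A CRE half-site was found in 6 of the 11 windows, from EGR1, EGR2, IER2, NR4A3 and ZFP36L1, against 21.2% of all windows. NR4A3 held 4 half-sites. NR4A1, which was called lower like EGR1, had neither a CArG box nor a CRE half-site in either of its 2 windows. The full CRE was in 1 window and in 1.65% of all, and an ETS core was in 2 windows, of IER2 and NR4A1, and in 14.5% of all. The EGR site GCGGGGGCG and the TCF/LEF letters CTTTGA were in none of the 11 and in 4.72% and 11.2% of all windows. Variants of these letters, such as CTTTGT, were not searched. A match describes the letters and no match says only that these letters are not in the window.

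**Figure D1:**
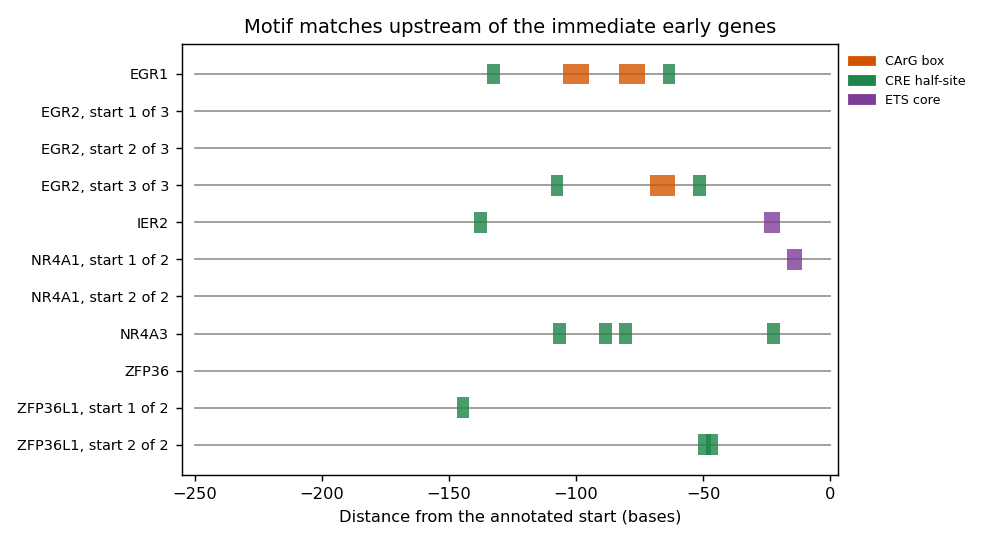
Positions of motif matches in the 250 bases before each annotated start (x axis, bases from the start) for the 7 genes with RefSeq entries, 1 line per start. EGR1 shows 2 CArG boxes between CRE half-sites, NR4A3 shows 4 half-sites, and ZFP36 shows none.

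CTNNB1 itself had 6.50 and 6.65 log2 units on the CTNNB1 siRNA arrays, against 10.06 and 10.20 on the control siRNA arrays, so both arrays labelled as silenced lay below both controls. Genes were tested where their mean over the 4 arrays exceeded the 30th percentile of all genes, 4.29 log2 units. A gene was called higher or lower where limma's test gave an adjusted p under 0.05 over all 15679 tested genes. Of 9 epithelial markers, 5 were above that level on every array, and 4 of these were called higher after CTNNB1 siRNA. The E-cadherin gene CDH1 had 9.06 and 9.48 log2 units with CTNNB1 siRNA, against 6.80 and 7.20 with control siRNA, and the keratin genes KRT8 and KRT18 and the adhesion gene EPCAM had log2 differences of 0.89, 0.50 and 0.31. KRT19, with a log2 difference of -0.05, was not called, and the intestinal markers CDX1, CDX2, VIL1 and KRT20 had means between 3.86 and 4.17 and were below it. Leukocyte, fibroblast and endothelial markers had means between 2.83 and 5.38 except for the lysosomal gene CD68, which had 8.99 and 9.08 log2 units on the CTNNB1 siRNA arrays and 7.41 and 7.39 on the controls. PTPRC, the defining leukocyte marker, lay between 3.74 and 3.82 on all 4 arrays, and the part of CD68 and of the epithelial markers in the results below was not tested.

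Among the immediate early genes, EGR1 and NR4A2 were far lower after CTNNB1 siRNA, IER3, NR4A1 and ZFP36L1 were lower by less, ZFP36 was higher, and IER2 was not called. Of 7 tested members, 5 were called lower, 1 higher and 1 not. Of all genes tested, 16.1% were called lower, 14.2% higher and 30.3% in either direction. With the replicate number as a block, 3 members were lower, as IER3 and ZFP36L1 did not pass (adjusted p 0.093 and 0.068 in limma). The labels do not say what that number marks. The arrays of both groups were fully separated for 6 of the 7 members, and groups did not overlap for 63.0% of all tested genes. The members were proposed with results of this same contrast known, so their calls describe them and support nothing further. The median log2 difference of the 7 was -0.51, against -0.015 over all tested genes. A lower signal in bulk RNA cannot tell fewer expressing cells from less RNA per cell. Leaving out any 1 array, of either group, left no called gene in limma and so no called member, with 4732 to 4930 genes at an unadjusted p under 0.05.

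EGR1, the founding member of its family and a sensor of ERK signalling, had 7.11 and 7.40 log2 units on the CTNNB1 siRNA arrays, against 10.06 and 10.13 on the control siRNA arrays. The groups were separated by several units, while arrays of a group differed by 0.29 and 0.07. The log2 difference was -2.84 (SE 0.12, 95% interval -3.13 to -2.55), or 7.16-fold on the deposited scale (whose values reach beyond 16 log2 units and may be wider than a plain log2 of intensity), and stood at rank 13 from the lowest of all 15679 tested differences. EGR3, which is known from T cells and muscle spindles, had 3.33 and 3.26 log2 units with CTNNB1 siRNA, against 3.49 and 3.48 with control siRNA. All 4 values lay below the level filter, so EGR3 was not tested. In a fit without that filter its log2 difference was -0.19 (95% interval -0.38 to -0.0042). That interval is not adjusted for the number of genes, and EGR3 did not pass there (adjusted p 0.16 in limma).

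NR4A2, also called NURR1, a nuclear receptor needed by dopamine neurons, had the largest negative difference of the members. It had 6.63 and 7.01 log2 units with CTNNB1 siRNA, against 9.85 and 9.80 with control siRNA, with no overlap. The log2 difference was -3.01 (SE 0.14, 95% interval -3.34 to -2.67), an 8.03-fold difference on the deposited scale, at rank 10 from the lowest. NR4A1, or NUR77, had 5.90 and 5.80 log2 units with CTNNB1 siRNA, against 6.42 and 6.30 with control siRNA. Both treated arrays lay below both controls, and the log2 difference was -0.51 (SE 0.09, 95% interval -0.73 to -0.29). NR4A3, or NOR1, had 4.09 and 4.15 log2 units with CTNNB1 siRNA, against 4.21 and 4.08 with control siRNA. These groups overlapped, the level was below the filter, and without it the log2 difference was -0.03 (95% interval -0.23 to 0.18). The intervals of NR4A2 and NR4A1 do not meet, and whether their differences differ was not tested.

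**Figure D2:**
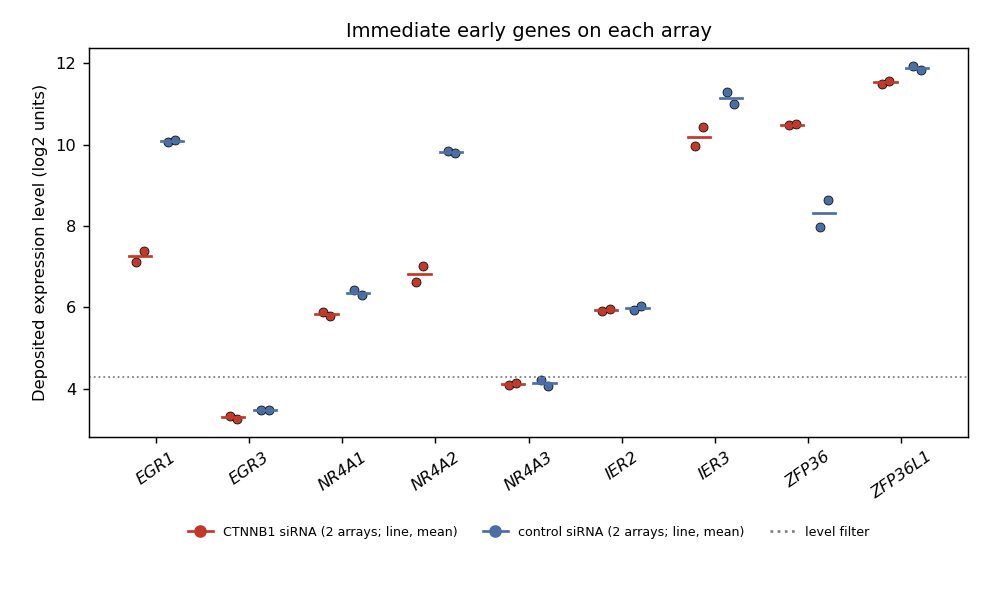
Deposited log2 expression level (y axis) of the 9 measured genes on each array, with CTNNB1 siRNA left of control siRNA, points for arrays and lines for group means; the dotted line is the level filter of 4.29. EGR1 and NR4A2 show the widest gaps below their controls, ZFP36 is higher with CTNNB1 siRNA, and EGR3 and NR4A3 lie under the line.

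IER3, or IEX-1, a membrane protein that modulates cell death and ERK dephosphorylation, was measured by 6 clusters. Of these, 5 carry the names of alternative haplotypes of the major histocompatibility region on chromosome 6. The chosen cluster, whose values 3 others shared exactly, had 9.96 and 10.44 log2 units with CTNNB1 siRNA, against 11.29 and 11.00 with control siRNA. The groups did not overlap, but treated arrays differed by 0.48 and controls by 0.29, more than for most members. The log2 difference was -0.95 (SE 0.18, 95% interval -1.40 to -0.49). The 6 clusters gave log2 differences between -0.995 and -0.925. They target nearly the same sequence and are not independent. IER2, a short-lived nuclear protein, had 5.92 and 5.96 log2 units with CTNNB1 siRNA, against 5.94 and 6.03 with control siRNA. These values overlapped, and the log2 difference of -0.05 had a 95% interval from -0.24 to 0.15.

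ZFP36, or tristetraprolin, was the only member called higher. It had 10.48 and 10.50 log2 units with CTNNB1 siRNA, against 7.99 and 8.64 with control siRNA. The treated arrays differed by 0.02 and the control arrays by 0.65, the widest gap of any member, yet both controls lay far below. The log2 difference was 2.18 (SE 0.21, 95% interval 1.66 to 2.69), a 4.52-fold difference on the deposited scale, at rank 44 from the highest. It was 1.85 without control replicate 1 and 2.50 without control replicate 2. Its paralog ZFP36L1 had 11.50 and 11.57 log2 units with CTNNB1 siRNA, against 11.95 and 11.84 with control siRNA. The groups did not overlap, and the log2 difference was -0.36 (SE 0.08, 95% interval -0.57 to -0.15). A second ZFP36L1 cluster, near the filter, had a log2 difference of -0.21.

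**Figure D3:**
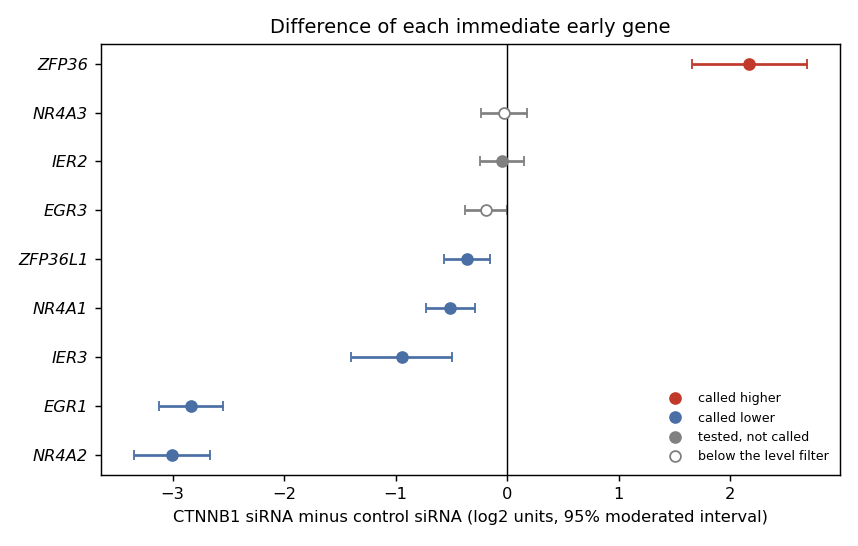
Log2 difference of CTNNB1 siRNA minus control siRNA (x axis) with its 95% moderated interval for the 9 measured genes; open symbols mark EGR3 and NR4A3, which were below the level filter and come from the fit without it. NR4A2 (-3.01) and EGR1 (-2.84) lie far left of zero, ZFP36 (2.18) lies right of it, and the intervals of IER2 and NR4A3 cross it. Intervals are not adjusted for the number of genes, and EGR3 was not called.

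ZFP36L2, a further paralog that also binds AU-rich elements, was not among the 10 genes. It had 6.45 and 6.57 log2 units with CTNNB1 siRNA, against 8.15 and 7.69 with control siRNA, and its level fell by 1.41 log2 units (SE 0.16), with an adjusted p of 0.0022 in limma. Of the family, ZFP36 was thus higher while ZFP36L1 and ZFP36L2 were lower. Among 27 tested genes of AU-rich element binding and messenger decay, ZFP36L2 included, 10 fell, 1 rose and 16 were not called. Their median log2 difference was -0.19, against -0.015 over all tested genes. For comparison, 16.1% of all tested genes were called lower and 14.2% higher. Neither this list nor those below was tested against these shares. DCP1A, a decapping cofactor, fell by 1.25 (adjusted p 0.0011 in limma). CNOT8, a deadenylase of the CCR4-NOT complex, fell by 0.88 and CNOT9, another subunit, by 0.74. CNOT1, the scaffold of that complex to which tristetraprolin binds, rose by 0.45 (adjusted p 0.0086 in limma). Of 22 listed messengers with AU-rich elements, 20 had a cluster and 15 were tested. CSF2 and BIRC3 had no cluster, and TNF, IL6, IL1B, CXCL3 and CCL20 lay below the level filter. Of the 15 tested, 1 rose, 1 fell and 13 were not called, and the median was -0.20. HIF1A, the hypoxia factor, rose by 0.73 and NOTCH1 fell by 0.31. The chemokine messengers CXCL8 and CXCL1 had log2 differences of -0.28 and -0.24 and did not pass, and VEGFA had -0.05.

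NAB2, a corepressor that binds EGR proteins and is itself an EGR target, had 6.80 and 6.91 log2 units with CTNNB1 siRNA, against 7.62 and 7.67 with control siRNA. It fell by 0.79 log2 units (SE 0.083), with an adjusted p of 0.0018 in limma. Its paralog NAB1 had 7.97 and 8.36 log2 units with CTNNB1 siRNA, against 8.36 and 8.62 with control siRNA, and was not called (adjusted p 0.19 in limma). The NAB1 groups touched at 8.36, and its log2 difference of -0.33 became -0.13 without CTNNB1 siRNA replicate 1, -0.52 without CTNNB1 siRNA replicate 2 and -0.20 without control replicate 2. RXRA and RXRB, partners of NR4A1 and NR4A2 on DNA, had log2 differences of -0.10 and -0.02 and did not pass. Of 14 tested genes known as EGR1 targets, 3 fell, 2 rose and 9 were not called, and the median was -0.13. These counts stand beside 16.1% of all tested genes called lower and 14.2% higher. FN1, the fibronectin gene, fell by 0.88, BCL2L11, a pro-apoptotic gene, by 0.42 and PDGFA, a growth factor gene, by 0.34, while HBEGF, a ligand of the EGF receptor, rose by 0.83 and the tissue factor gene F3 by 0.35.

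Factors that act at immediate early promoters moved both ways. Of 15 tested, 6 rose, 4 fell and 5 did not pass, and the median was 0.19. The shares over all tested genes were 14.2% higher and 16.1% lower. ELK1 had 6.37 and 6.45 log2 units with CTNNB1 siRNA, against 7.64 and 7.67 with control siRNA, and fell by 1.25 (SE 0.079), with an adjusted p of 0.00053 in limma. SRF, its partner, is not among these 15 and is counted below with the other immediate early transcription factors. SRF had 6.97 and 6.84 log2 units with CTNNB1 siRNA, against 7.41 and 7.42 with control siRNA. The fall of SRF was 0.51 (adjusted p 0.0077 in limma). For both, the treated and control arrays stood apart. The other genes of the 15 that fell were TCF7L2, the main partner of beta-catenin on DNA in colon, by 0.73, CRTC3 by 0.42 and CREB1 by 0.41. MEF2D and MEF2A, which bind NR4A1 regulatory DNA, rose by 0.97 and 0.61, and the coactivator gene CREBBP by 0.56. Of 19 tested genes of the ERK cascade and its kinases, 6 were higher, 0 lower and 13 not called, and the median was 0.26. SOS1, an exchange factor that activates RAS, rose by 0.96, and MAP2K1, which encodes MEK1, by 0.74. These are messenger levels, and the activity of ERK was not measured.

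**Figure D4:**
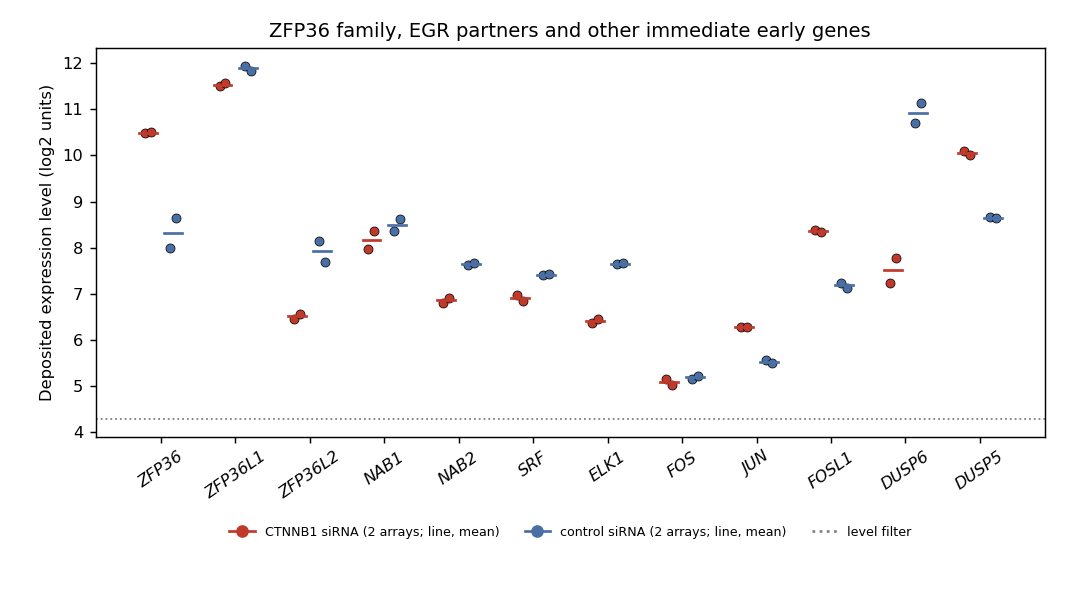
Deposited log2 expression level (y axis) on each array for the ZFP36 family, EGR corepressors, ELK1 and SRF, and other immediate early or ERK feedback genes, with CTNNB1 siRNA left of control siRNA, points for arrays and lines for group means. ZFP36 stands opposite to ZFP36L1 and ZFP36L2, FOS overlaps between groups, and DUSP6 and DUSP5 move in opposite directions.

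Other immediate early transcription factors were called in both directions. Of 23 tested, 5 fell, 6 rose and 12 did not pass, and their median of -0.02 was close to that of all tested genes. SRF, given above, is among those that fell. Among all tested genes, 16.1% were called lower and 14.2% higher. FOS had 5.16 and 5.03 log2 units with CTNNB1 siRNA, against 5.16 and 5.22 with control siRNA. The groups overlapped and the log2 difference was -0.10, with an adjusted p of 0.49 in limma; it was -0.16 without CTNNB1 siRNA replicate 1 and -0.03 without CTNNB1 siRNA replicate 2. JUN, which pairs with FOS in AP-1, had 6.27 and 6.29 log2 units with CTNNB1 siRNA, against 5.57 and 5.49 with control siRNA, and rose by 0.75 (adjusted p 0.0018 in limma). The late-phase AP-1 genes FOSL1 and FOSL2 rose by 1.18 and 0.66, and BHLHE40, a circadian and hypoxia regulator, by 1.32. HES1, a Notch target, fell by 0.98, MYC by 0.79 and NFIL3, a bZIP repressor, by 0.55. Without the level filter NFIL3 was not called (adjusted p 0.052 in limma).

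Of 20 tested ERK feedback genes and dual-specificity phosphatases (DUSP genes), 9 were lower, 5 higher and 6 did not pass. The median was -0.18. Those higher were all DUSP genes. Those lower were DUSP4, DUSP6, SPRY4, SPRED2, ETV1, ETV4, ETV5, PHLDA1 and IL17RD. By the same call, 16.1% of all tested genes were lower and 14.2% higher. DUSP6, the cytoplasmic phosphatase of ERK, had 7.24 and 7.78 log2 units with CTNNB1 siRNA, against 10.70 and 11.14 with control siRNA, and fell by 3.41 (SE 0.22, adjusted p 0.00056 in limma). Its size was of the order of those of EGR1 and NR4A2, and the groups were far apart. SPRY4, an inhibitor of receptor signalling, fell by 1.39, DUSP4 by 1.24 and ETV1, an ETS factor induced by ERK, by 1.20. DUSP5, a nuclear phosphatase of ERK, had 10.09 and 10.02 log2 units with CTNNB1 siRNA, against 8.66 and 8.64 with control siRNA. It rose by 1.41 (adjusted p 0.00041 in limma), and DUSP16, DUSP14 and DUSP8 rose by 1.22, 0.96 and 0.60.

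**Figure D5:**
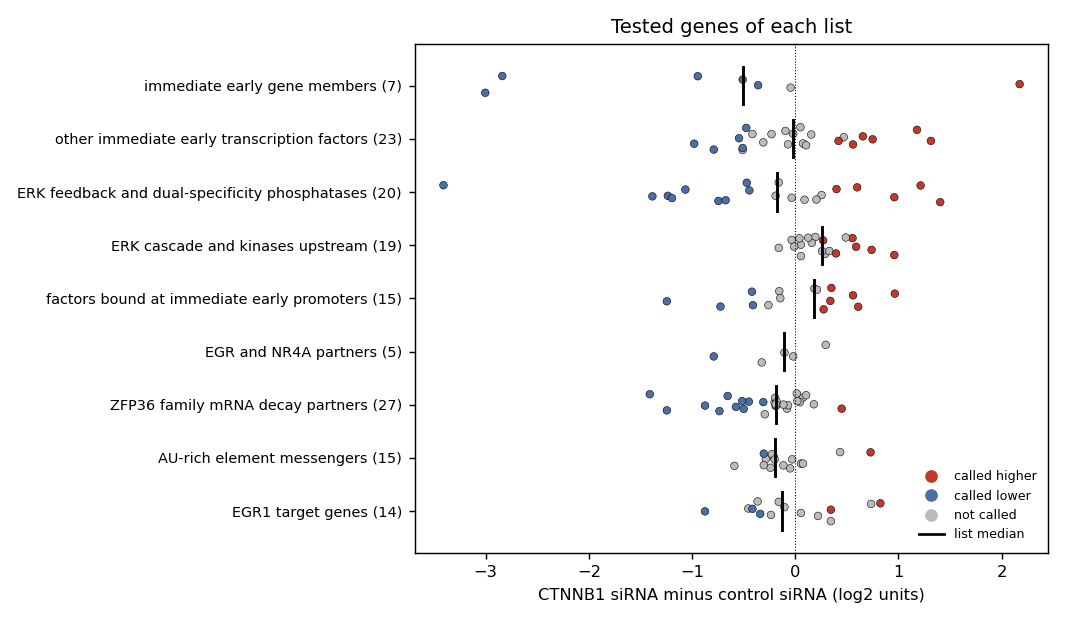
Log2 difference of CTNNB1 siRNA minus control siRNA (x axis) for the tested genes of the 7 tested members and of 8 related lists, 1 point per gene, coloured by call, with the list median as a bar. EGR1, NR4A2 and DUSP6 stand apart at the left, ZFP36 at the right, and the median of the other immediate early transcription factors is near zero.

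The genes whose course over the 4 arrays was most like that of EGR1 were found from values centred on each gene's own mean, by the root mean square difference from EGR1 over the 4 arrays. They were FGF9, at 0.057 log2 units, PABIR2 at 0.12, SLC2A1 at 0.18, NUDT21 at 0.18 and BMP4 at 0.20. FGF9 had 5.97 and 6.13 log2 units with CTNNB1 siRNA, against 8.83 and 8.99 with control siRNA. FGF9 is a secreted growth factor, SLC2A1 a glucose transporter, NUDT21 a subunit of the complex that places messenger ends, and BMP4 a secreted factor. The log2 differences of the 5 lay between -3.22 and -2.48, and 4 arrays in 2 groups cannot separate genes that merely changed by a like amount.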

How the data were processed

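Total RNA of the 4 samples was labelled with biotin for Affymetrix whole-transcript arrays, per the labels' protocols. The file holds log2 levels per transcript cluster, deposited by the authors, who used Affymetrix Expression Console with RMA, per the submitters' processing notes. The sources used here do not give the RMA variant or the build of the clusters. Between 267 and 284 of 67528 clusters per array exceed 16 log2 units, so folds are on the deposited scale and may be wider than plain log2 intensities. Clusters with 1 symbol in the platform table (23781) were named, symbols were updated through RefSeq, and each of 22411 genes was represented by its cluster of highest mean level.

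Genes above the 30th percentile of mean level entered a fit in limma 3.58.1, under R 4.3.3 (2 groups, no block, no trend), with Benjamini-Hochberg adjustment over all 15679 genes and a threshold of 0.05. Moderation raised the 2 residual degrees of freedom to 5.66. Standard errors and 95% intervals are moderated. Exact permutation of 2 against 2 samples cannot go below p = 0.33. The labels call the replicates biological but do not say whether they were separate cultures. The spread may thus not be that between independent cultures. On simulated data with this layout and 15687 tested genes, 91% of 67 genes changed 1.5-fold and 100% of 67 changed 2-fold were recovered. The simulated noise was independent and normal with the moderated spreads, and the changed genes were few and lay clear of the level filter. The recovery therefore does not measure the power in the real data. Figures were drawn with matplotlib 3.10.9.

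The members and the 8 gene lists were chosen with earlier results of these data known. All members, CTNNB1, NAB1, NAB2, ZFP36L2, FOS, JUN, DUSP6 and SRF are named. Up to 4 called genes per direction and list by size are also named, with the 5 tested genes outside the members most like EGR1. Uncalled list genes given as examples (CXCL8, CXCL1, VEGFA, RXRA, RXRB) and the marker genes were picked after their values were seen. Alternatives were the level filter, quantile normalization, a trended or robust prior, a replicate block, averaging of clusters, a threshold of 0.01 and leaving out each array.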

Additional observations from a re-analysis of the deposited data

How the results depend on the processing

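Without a level filter, with a filter at the 50th percentile, after quantile normalization, with a trended or robust prior and with clusters averaged per gene, 5 members were called lower and 1 higher, as reported, and the counts over all genes stayed within 1.5 times. At a threshold of 0.01, 1258 genes were higher and 1356 lower, against 2225 and 2531, and 3 members were lower and 1 higher. Replicate numbers are shared by both groups, but the labels do not say what they mark. Deviations of same-numbered arrays from their group means correlated with r = 0.27 across tested genes. With the replicate number as a block, 1929 genes were higher and 1969 lower, and 3 members were lower and 1 higher, since IER3 and ZFP36L1 no longer passed (adjusted p 0.093 and 0.068 in limma). Of the other genes named, BCL2L11, CREB1, F3, NOTCH1 and PDGFA also lost their calls with it, with adjusted p-values in limma between 0.052 and 0.093. With any 1 array left out, 0 genes and 0 members were called in either direction by limma, with 1 residual degree of freedom (4732 to 4930 genes had an unadjusted p under 0.05), and the log2 difference of CTNNB1 lay between -3.63 and -3.48. That of IER3 lay between -1.185 and -0.705, and that of IER2 between -0.09 and 0. Among the list counts, AU-rich messengers higher were 2 rather than 1 with the 50th percentile filter or quantile normalization, AU-rich messengers lower were 0 rather than 1 with the replicate block, and EGR1 targets lower were 1 rather than 3 with it. At the threshold of 0.01, 8 of the 16 list counts moved by over 1.5 times, and without any 1 array 14 did. The NFIL3 call was lost without a level filter (adjusted p 0.052 in limma). The cause was not tested.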

Other observations

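Replicates 1 and 2 of the CTNNB1 siRNA group had 7.11 and 7.40 log2 units for EGR1, 6.63 and 7.01 for NR4A2, 9.96 and 10.44 for IER3 and 7.24 and 7.78 for DUSP6. Other genes called lower had the opposite order, with 5.90 and 5.80 for NR4A1, 6.97 and 6.83 for HES1 and 6.97 and 6.84 for SRF. These genes were picked after their values were seen, and with 2 arrays no difference between replicates was tested.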
